A study of Sus scrofa with 12 samples.

Results

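The genes described here are the cytokines, the chemokines with their receptors, the interleukins with their receptors, and the ligands and receptors of the TNF superfamily. They were chosen by symbol from the mRNA count table: every symbol that begins with CCL, CXCL, CCR, CXCR or IL and a digit, or with TNFSF or TNFRSF, together with TNF, LIF, LIFR, IL6ST and OSMR, and for each symbol the entry with the most reads. This gave 119 genes, listed under 178 entries, of 13363 distinct symbols and 29658 entries in all. Each symbol is counted as a gene, although some share a locus: IL23R with IL23RA, and CCR2 with the entry taken for CCR3. IL8 is the older symbol of CXCL8 and is also counted apart. No measured value entered the rule except the total of reads that picked 1 entry per symbol, but the rule was set with earlier results of these data known. By letters alone it also took in IL4I1, an enzyme that breaks down amino acids and is named for its induction by IL4.

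Mesenchymal stromal/stem cells (MSCs) were grown from the abdominal fat of 3 female domestic pigs aged 3 months, in medium with platelet lysate, and were used at passage 3. Extracellular vesicles (EVs), the membrane-bound particles that cells shed, were spun down by ultracentrifugation from the supernatants of these MSC cultures, so each EV library has an MSC library of the same pig. The comparison asks which mRNAs are enriched in EVs over their parent cells, with 3 MSC and 3 EV libraries and no treatment in any group. The labels name no genetic modification, the pigs are numbered 1, 2 and 3 by the replicate numbers of the libraries, and whether RNA outside the vesicles was removed before extraction is not given in the sources used here.

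Cytokines are secreted proteins with which cells signal to each other, and most are read by a receptor of several chains on the target cell. The cytokines IL6, IL11, LIF and OSM share the signalling chain IL6ST, also called gp130, which acts through JAK kinases and STAT factors. Members of the IL1 family signal through MYD88 and NF-kB, chemokines draw leukocytes along a gradient through G protein-coupled receptors, and TNF ligands act on cell survival and inflammation through trimeric receptors. MSCs are known as a source of IL6 and of several chemokines, and part of what they do to immune cells is ascribed to the factors they secrete.

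The MSC libraries held 11332330 to 12276855 counts on genes and the EV libraries 10429085 to 12151384. A count of 0 allows up to 3 counts, which corresponds to 0.244 to 0.288 CPM, counts scaled to the size of the library, over the 6 libraries, and these limits cover counting error only. The labelled cell type was checked on its markers: NT5E, CD44, PDGFRA and PDGFRB had 900 to 10480 reads in every library, whereas THY1, COL1A2, COL3A1 and DCN had 0 reads, each on an entry that shares its span with another. S100A6 had 1673 to 4263 reads per library, LUM 130 to 1044 and ENG, which encodes CD105, only 44 to 114. Of the 8 listed EV markers, 3 could be tested and 0 were called. Their median log2 ratio of EVs over MSCs was -0.53, and CD9 had 4 to 7 reads per library. Of the 12 markers of macrophages and other leukocytes, 2 could be tested and 0 were called, with 2 to 10 reads of PTPRC, 0 of CD163 and 416 to 771 of CD14 per library. Of the 10 markers of T and B cells, 9 had 0 reads in every library. Among platelet markers PPBP was at 0 and GP9 had 9 to 33 reads, and the adipocyte marker ADIPOQ had 0 or 1.

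Of the 119 genes, 60 had at least 1 read and 59 had 0 in all 6 libraries. Only 40 passed edgeR's filter on low counts and were tested, and 20 had reads but stayed under it. Receptors of interleukins and of the gp130 family were the best covered, with 20 of 35 tested, against 4 of 24 chemokines, 1 of 12 chemokine receptors, 8 of 29 interleukins and LIF, 3 of 9 TNF ligands and 4 of 10 TNF receptors. The zeros were unevenly placed: 46 of the 76 genes whose locus carries a second gene model were at 0 (60.5%), against 13 of the 43 without one (30.2%). A second model is an entry of the same symbol over the locus, or one that shares at least 50% of the joint span. Sorted by shared span instead, all entries were split in the same direction. Of all entries with at least 90% of their span under another entry, 56.2% were at 0, against 28.8% of those sharing no span. Among the members these shares were 66.1% and 28.9%. Where a smaller part of the span was shared, 14.5% of all entries and 36.8% of members were at 0. Whether the counting left out reads over bases that both models share was not tested, so a gene at 0 with a second model is given here as having no counted reads and not as unexpressed.

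**Figure D1:**
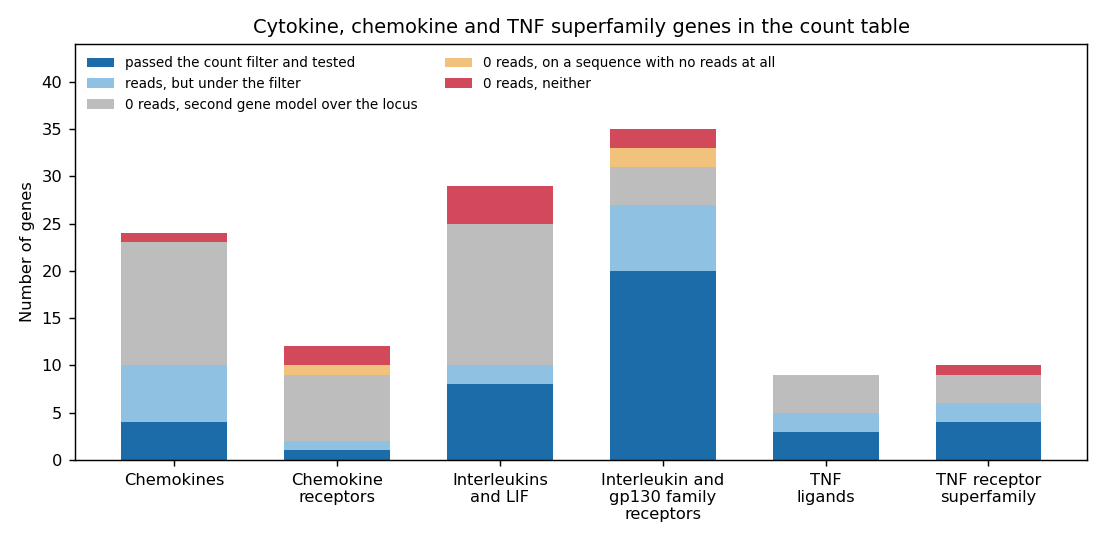
Number of genes (vertical axis) in each role, split by what the count table held. Dark blue parts passed the filter and were tested, light blue parts had reads but too few, grey parts had 0 reads at a locus with a second gene model, yellow parts lay on a sequence without any reads, and red parts had 0 reads for neither reason. Grey applied to 13 of the 24 chemokines and 15 of the 29 interleukins and LIF.

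Several genes that MSC studies usually follow were among those at 0. They include LIF, which keeps many stem cells undifferentiated, the inflammatory cytokines TNF and IL1B, the chemokine CXCL12 with its receptor CXCR4, the main TNF receptor TNFRSF1A, and IL10, which dampens inflammation. All 7 carried a second gene model. Of the 13 genes at 0 without a second model, 3 (CXCR3, IL1RAPL1 and IL1RAPL2) lay on a sequence named X without a prefix, on which no entry had a read. The other 10 were CCL14, CCR6, CXCR5, IL19, IL1RL2, IL20, IL22, IL24, IL5RA and TNFRSF11A. Most of these are known from leukocytes, epithelia or bone.

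The 40 tested genes did not shift as a group. Their median log2 ratio of EVs over MSCs (log2FC, given below as the value ± its standard error) was -0.04, with 19 of 40 above 0, beside a median of -0.02 and 49.1% above 0 over all 12392 entries tested. By pig, the median of the members' log2 differences was 0.10, -0.19 and -0.11 for pigs 1, 2 and 3. In CPM scaled to all counts on genes, the members together held 2793, 2684 and 2275 in the MSCs of pigs 1, 2 and 3 and 2988, 3234 and 2131 in their EVs, and these ranges overlap. In bulk RNA of this kind, fewer contributing cells or vesicles and less RNA in each cannot be told apart.

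With edgeR's quasi-likelihood test, 0 members were higher and 0 lower in EVs once p-values were adjusted (a change over 2-fold with adjusted p under 0.05), and the share called over all entries was also 0% in both directions (lowest adjusted p of all entries = 0.129, of the members = 0.219). By the thresholds of the study, a fold change over 2 and an unadjusted p-value under 0.05, 2 of 40 members (5%) were higher in EVs, beside 5.55% of all entries. By the same thresholds 3 of 40 (7.5%) were lower, beside 3.57% of all entries. The higher genes were TNFSF18 and IL13RA1, and the lower genes were TNFRSF12A, CCL11 and IL18R1. DESeq2 called 1 member higher at an adjusted p-value under 0.05, TNFSF18, beside 1.86% of all entries, and 2 lower, TNFRSF12A and IL18R1, beside 1.42%.

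The EV and MSC libraries of a pig deviated together, so the fit was also made with the pig as a block. It called 5 members higher (12.5%), beside 8.01% of all entries, and 6 lower (15%), beside 5.17%, by the unadjusted thresholds. The added genes were TNFRSF21, IL17RD and IL21R among the higher and CXCL8, CXCL2 and IL1R2 among the lower, and these 6 were chosen for description after their values were seen. At an adjusted p-value under 0.05 the blocked fit of edgeR called 0 members higher, beside 0.492% of all entries, and 1 lower, IL18R1, beside 0.605%. In TMM-normalized CPM all 3 EV libraries lay above all 3 MSC libraries for 3 members (7.5%), beside 14.3% of all entries, and below them for 5 (12.5%), beside 13.6%. Whether these shares of the 40 members differ from those of all entries was not tested.

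**Figure D2:**
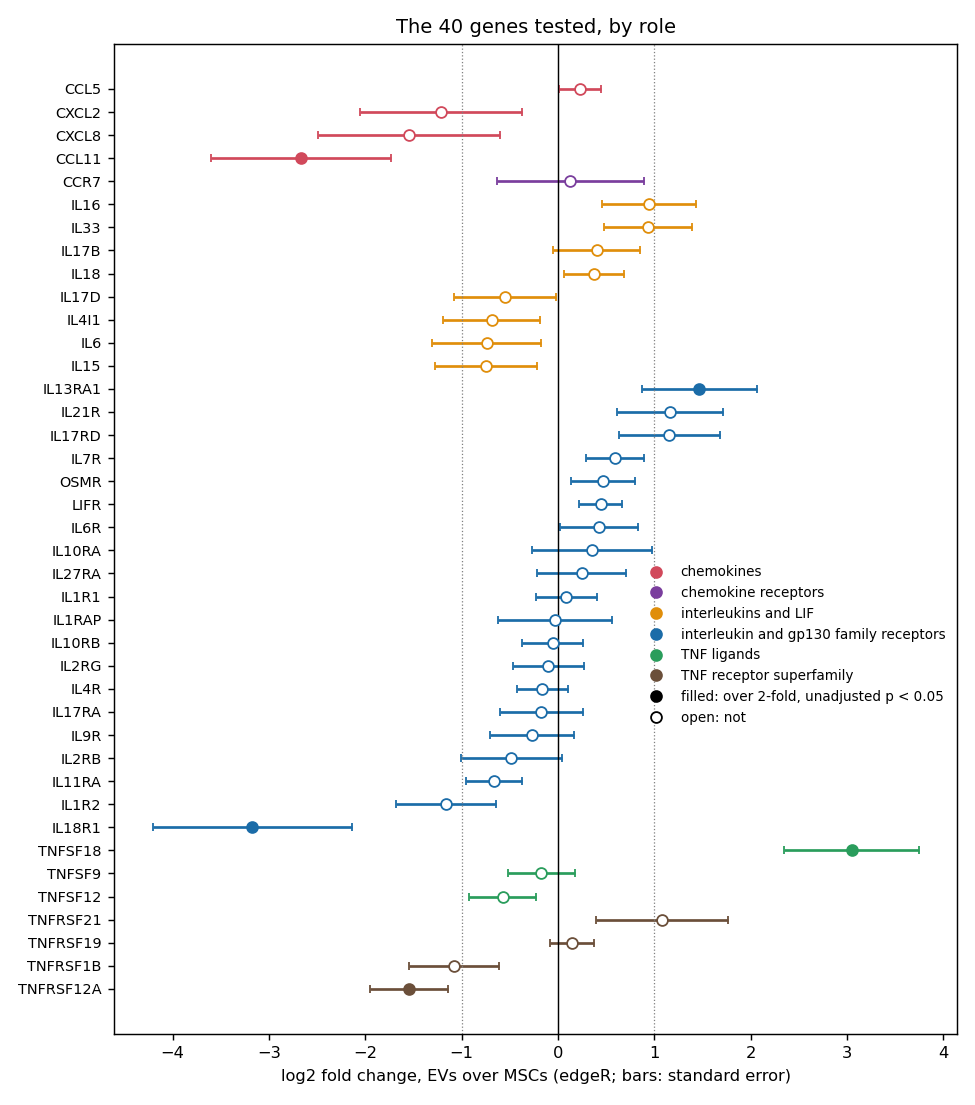
Log2 fold change of EVs over MSCs (horizontal axis) with its standard error for the 40 tested genes, grouped and coloured by role. Filled points passed a 2-fold change at an unadjusted p-value under 0.05 in edgeR: TNFSF18 (3.05) and IL13RA1 (1.47) to the right, TNFRSF12A (-1.55), CCL11 (-2.67) and IL18R1 (-3.17) to the left. Dotted lines mark a 2-fold change.

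Chemokines were the role with the lowest median, -1.38 over 4 tested genes. The median over so few genes is a description only, and 1 of the 4 was lower by the unadjusted thresholds while 0 were higher. All 4 loci carry a second gene model with 0 reads, over 1.8% of the entry's span for CXCL2, 57.5% for CCL5, 91.9% for CCL11 and 100% for CXCL8. These are shares of the genomic span and not of the counted bases. The CXCL2 entry counts 1240 bases and the second model inside its span 1072, and how many of them are shared was not tested.

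CCL11, also called eotaxin and known for drawing eosinophils, had 31, 95 and 19 reads in the MSCs of pigs 1, 2 and 3, against 4, 3 and 15 in their EVs. After normalization these were 4.36 ± 4.10 CPM in MSCs and 0.696 ± 0.712 CPM in EVs (SD, n = 3 each). It was lower in the EVs of all 3 pigs and the groups did not overlap, though in pig 3 the difference was small, from 1.61 to 1.52 CPM. The log2FC was -2.67 ± 0.93 (adjusted p = 0.266 in edgeR, 0.177 in the blocked fit and 0.0692 in DESeq2). Without MSC replicate 2, EV replicate 1 or EV replicate 2 in turn, the log2FC of CCL11 was -1.56, -2.34 and -2.25 and no longer past the unadjusted threshold. The entry lies at chr12:42424321-42427185 of the pig build susScr3.

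CXCL8 and CXCL2 attract neutrophils. CXCL8 had 143, 14 and 95 reads in MSCs, against 23, 5 and 47 in EVs, in the order of the pigs. Each pig's EVs held less than its MSCs, but the pigs differed more than the groups, so that the ranges overlap. Its log2FC was -1.55 ± 0.95 (edgeR adjusted p = 0.417), and -1.65 ± 0.50 in the blocked fit (adjusted p = 0.130). Without EV replicate 3 it was -2.55 and past the unadjusted threshold. The older symbol of the same gene, IL8, is listed on an unplaced contig with 0 to 20 reads, and reads may have been split between the 2 entries. CXCL2 had 589, 261 and 272 reads in MSCs, against 389, 50 and 36 in EVs, which is lower in every pig and again overlapping, because pig 1 was high in both. The log2FC of CXCL2 was -1.21 ± 0.84 (edgeR adjusted p = 0.466) and -1.91 ± 0.48 in the blocked fit (adjusted p = 0.0805). The decrease was larger without EV replicate 1, at -3.05, and then past the unadjusted threshold.

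CCL5, which draws T cells and monocytes, had the highest mean RPKM in both groups of the 10 chemokines with reads. Ranks by RPKM, here and below, are of counted reads only. Where genes at 0 with a second gene model would rank was not tested. The deposited RPKM, which divides reads by gene length and library size, was 10.6 ± 1.16 for CCL5 in MSCs and 12.7 ± 3.10 in EVs (SD, n = 3 each). Its log2FC was 0.23 ± 0.22 (edgeR adjusted p = 0.590), within the spread between libraries. The reads fall on an Ensembl model of 4026 bases, while the RefSeq-named CCL5 entry of 730 bases had 0. CCL2, the monocyte attractant, had 0, 11 and 12 reads in MSCs, against 1, 0 and 0 in EVs. These are too few for edgeR's filter. DESeq2, which was run without that filter, placed it past the unadjusted thresholds as lower in EVs but gave it no adjusted p-value. Its second gene model had 0 reads.

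CCR7, which guides lymphocytes to lymph nodes, was the only chemokine receptor that could be tested. It had 8, 24 and 11 reads in MSCs, against 25, 22 and 3 in EVs, overlapping, with a log2FC of 0.13 ± 0.77 (edgeR adjusted p = 0.943). CCR10 had 2 reads in all, in the EVs of pig 2. The other 10 receptors, from CCR1 to CXCR6, were at 0.

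Among the interleukins, 0 of 8 tested passed in either direction, and the log2FCs ran from -0.75 for IL15 to 0.95 for IL16. IL6 had the highest mean RPKM of all the members in both groups, and the highest value in 3 of the 6 libraries. It stood at 88.2, 99.7 and 28.7 RPKM in the MSCs of pigs 1, 2 and 3 and at 73.7, 44.5 and 20.2 in their EVs. Every pig's EVs were below its MSCs, pig 3 was low in both, and the groups overlap. IL6 made up 26.7%, 29.6% and 10.9% of all reads on members in MSCs and 21.8%, 11.2% and 7.64% in EVs. The log2FC was -0.74 ± 0.57 (edgeR adjusted p = 0.504), and -0.66 ± 0.36 in the blocked fit (adjusted p = 0.330). Its reads were counted on an entry at chr9:101021734-101085451 that spans other IL6 models with 0 reads.

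IL33 is a member of the IL1 family that is kept in the nucleus and released by damaged cells. It had 14.7, 17.6 and 9.91 RPKM in MSCs and 22.4, 49.4 and 14.0 in EVs, in the order of the pigs. The level was higher in the EVs of all 3 pigs, most in pig 2, and the ranges overlap because pig 3 was lowest in both groups. The log2FC was 0.94 ± 0.46 (edgeR adjusted p = 0.343), which did not pass a 2-fold change. Without MSC replicate 2 the log2FC of IL33 was 1.24 and without EV replicate 3 it was 1.21, and in these fits it was past the unadjusted threshold. In the EVs of pig 2 it stood above IL6, at 44.5 RPKM, which was the higher of both in the other 5 libraries.

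**Figure D3:**
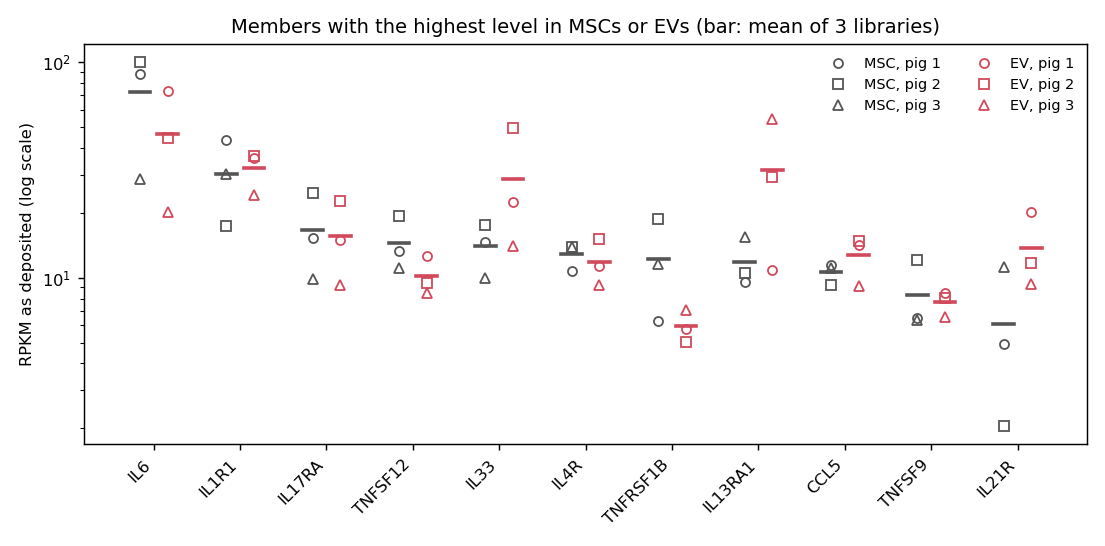
Deposited RPKM (vertical axis, log scale) of the 11 members that were among the 10 highest in MSCs or in EVs, with a point for each pig and a bar at the mean of 3 libraries. IL6 and IL1R1 have the highest means in both groups, and only IL13RA1 among the 11 passed the unadjusted thresholds.

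IL16, a chemoattractant for CD4+ cells, had 150, 328 and 275 reads in MSCs, against 326, 384 and 694 in EVs. In normalized CPM it was higher in the EVs of 2 of 3 pigs, and its log2FC was 0.95 ± 0.49 (edgeR adjusted p = 0.362). IL18, which induces interferon gamma, was higher in the EVs of 3 of 3 pigs by a log2FC of 0.38 ± 0.31 (edgeR adjusted p = 0.532), a difference within the spread. IL17B and IL17D, members of the IL17 family, gave log2FCs of 0.40 and -0.55. IL15, which sustains NK cells, rested on 7 to 24 reads per library. IL1A, an alarm signal of the IL1 family, had 5 reads in all MSC libraries and 1 in all EV libraries, and was not tested.

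The receptors of interleukins and of the gp130 family showed the lowest and 1 of the higher values of all members. Of 20 tested, 1 was higher (IL13RA1), 1 was lower (IL18R1) and 18 passed in neither direction, with a median log2FC of 0.03.

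IL18R1 is the chain that binds IL18. It had 447, 41 and 61 reads in the MSCs of pigs 1, 2 and 3, against 36, 5 and 14 in their EVs, which corresponds to 34.6, 3.92 and 5.17 CPM and 3.04, 0.389 and 1.41 CPM. All 3 EV libraries were below all 3 MSC libraries, and the MSCs of pig 1 stood far above the rest. The log2FC was -3.17 ± 1.04 (edgeR adjusted p = 0.252), that is 9.01-fold lower in EVs. The blocked fit gave -2.90 ± 0.48 (adjusted p = 0.0320), and DESeq2 gave an adjusted p of 0.0183. Without MSC replicate 1 the log2FC of IL18R1 was -1.49, and without EV replicate 3 it was -3.09, and in neither fit was it past the unadjusted threshold. On the log2(RPKM + 1) scale it was -1.03 and also not past it. The entry, at chr3:54374030-54518149, shares its span with no other. Its partner chain IL18RAP had 2 reads in all MSC libraries and 4 in all EV libraries.

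IL13RA1 forms a receptor for IL13 and IL4 together with IL4R. It had 534, 578 and 857 reads in MSCs, against 565, 1639 and 2892 in EVs, in the order of the pigs. It was higher in the EVs of all 3 pigs, but in pig 1 only from 41.3 to 47.6 CPM against 72.6 to 292 CPM in pig 3, and the groups overlap. The log2FC was 1.47 ± 0.60 (adjusted p = 0.296 in edgeR, 0.146 in the blocked fit and 0.156 in DESeq2). Without EV replicate 3 the log2FC of IL13RA1 was 0.64, and it stayed past the unadjusted threshold in only 1 of the 6 fits that each left out a library, the one without EV replicate 1 (1.90). IL4R, its partner, did not move with it: it had 12.8 ± 1.85 RPKM in MSCs and 11.9 ± 2.98 RPKM in EVs (SD, n = 3 each), with a log2FC of -0.16 ± 0.26 (edgeR adjusted p = 0.756). The IL13RA1 entry lies at chrX:114333596-114386429.

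The receptors of the IL1 family lie side by side on chr3, where IL18R1, IL1R1 and IL1R2 start at 54374030, 54729098 and 54901383. IL1R1, the signalling receptor of IL1, was the second most abundant member in both groups by RPKM, at 30.3 ± 13.0 in MSCs and 32.3 ± 7.08 in EVs (SD, n = 3 each). Its log2FC was 0.09 ± 0.32 (edgeR adjusted p = 0.897), well within the spread. IL1R2, a decoy receptor that binds IL1 without signalling, had 218, 156 and 230 reads in MSCs, against 168, 66 and 35 in EVs. The EV libraries were all below the MSC libraries, in pig 1 only slightly. The log2FC of IL1R2 was -1.16 ± 0.52 (edgeR adjusted p = 0.319) and -1.39 ± 0.46 in the blocked fit (adjusted p = 0.154). It was past the unadjusted thresholds in 5 of 15 alternative fits, among them DESeq2 and the fit without EV replicate 1, which gave -1.97. The accessory chain IL1RAP, which both IL1R1 and IL33 signalling need, had a log2FC of -0.03 ± 0.59, and of 0.30 ± 0.53 in the blocked fit.

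Of the gp130 family, LIFR and OSMR could be tested. LIFR, the receptor chain for LIF, had 714, 557 and 604 reads in MSCs, against 774, 1136 and 627 in EVs, or 53.2 ± 2.03 CPM and 72.4 ± 14.1 CPM (SD, n = 3 each). The groups did not overlap, and the log2FC was 0.44 ± 0.23 (edgeR adjusted p = 0.355), short of a 2-fold change. LIFR has a gene model of 12591 bases, and with the trend of each library with gene length removed its log2FC was -0.26. IL31RA, a further receptor of this family, had 2, 0 and 0 reads in MSCs, against 2, 20 and 6 in EVs. It stayed under edgeR's filter, and DESeq2 placed it past the unadjusted thresholds as higher in EVs without an adjusted p-value. OSMR, which pairs with IL6ST to read OSM, had a log2FC of 0.47 ± 0.33 (edgeR adjusted p = 0.470) and was higher in the EVs of 2 of 3 pigs.

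IL6ST, the signalling chain shared by IL6, IL11, LIF and OSM, had 3, 2 and 5 reads in MSCs, against 1, 14 and 6 in EVs. These were too few to be tested, and a second gene model covers nearly its whole entry. IL6R, the IL6-binding chain, had 236 reads in MSCs and 324 in EVs, with a log2FC of 0.43 ± 0.40 (edgeR adjusted p = 0.583). IL11RA, the receptor of IL11, was lower in the EVs of all 3 pigs without overlap, at 96.7 ± 33.1 CPM in MSCs and 61.1 ± 6.69 CPM in EVs (SD, n = 3 each). Its log2FC was -0.66 ± 0.29 (edgeR adjusted p = 0.316), under a 2-fold change, and its entry lies within the span of UBAP1.

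IL21R, a receptor of the common gamma chain family known from lymphocytes, ranked 14 by RPKM in MSCs and 6 in EVs. It had 546, 223 and 1223 reads in the MSCs of pigs 1, 2 and 3, against 2075, 1298 and 974 in their EVs. It was higher in the EVs of pigs 1 and 2 and slightly lower in those of pig 3, whose MSCs were the highest. The log2FC was 1.16 ± 0.55 (edgeR adjusted p = 0.338) and 1.43 ± 0.46 in the blocked fit (adjusted p = 0.142). It was past the unadjusted thresholds in 6 of 15 alternative fits, among them DESeq2, both limma fits on RPKM and the fit without MSC replicate 3, which gave 1.97. Its shared partner chain IL2RG gave a log2FC of -0.10 ± 0.37, with 23 to 45 reads per library.

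IL17RD, which is also known as a brake on FGF signalling, had 275, 539 and 819 reads in MSCs, against 626, 2058 and 1024 in EVs. It was higher in the EVs of all 3 pigs while the pigs overlap between groups. The log2FC of IL17RD was 1.16 ± 0.52 (edgeR adjusted p = 0.323) and 1.18 ± 0.31 in the blocked fit (adjusted p = 0.0950). It was also past the unadjusted thresholds in DESeq2, without MSC replicate 3 (1.53) and without EV replicate 1 (1.48). IL17RA, the receptor chain for IL17A, was the third member by RPKM in MSCs, and with 16.6 ± 7.44 RPKM in MSCs and 15.6 ± 6.78 in EVs (SD, n = 3 each) it gave a log2FC of -0.17 ± 0.43 (edgeR adjusted p = 0.848). Its entry shares its span with another entry that held 3128 reads. IL7R was higher in the EVs of all 3 pigs without overlap, by a log2FC of 0.59 ± 0.30 (edgeR adjusted p = 0.360) on 64 to 139 reads, counted on an entry within the span of SPEF2.

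Of the TNF ligands, 1 of 3 tested was higher and 0 were lower. TNFSF18, also called GITRL, is a ligand that costimulates T cells and regulatory T cells through GITR. It had 5, 6 and 6 reads in the MSCs of pigs 1, 2 and 3, against 13, 69 and 58 in their EVs. All 3 EV libraries lay above all 3 MSC libraries, and the EVs of pig 1 were much closer to the MSCs than those of the other two. The level was 0.489 ± 0.0948 CPM in MSCs and 4.11 ± 2.62 CPM in EVs (SD, n = 3 each), and the MSC level stood close to the limit that a count of 0 allows, 0.244 to 0.265 CPM in the MSC libraries. The log2FC was 3.05 ± 0.70 (edgeR adjusted p = 0.219), that is 8.27-fold higher in EVs, and 2.82 ± 0.60 in the blocked fit (adjusted p = 0.0601). DESeq2 gave an adjusted p of 0.00789. It was past the unadjusted threshold whichever library was left out, with log2FCs of 2.71 to 3.50, but on the scale of log2(RPKM + 1), which understates changes of low genes, it gave 0.45 and fell short of 2-fold. The entry at chr9:127140871-127151423 shares its span with no other.

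TNFSF9, the ligand of the T cell receptor CD137, and TNFSF12, also called TWEAK, were the abundant ligands. TNFSF9 had 8.30 ± 3.23 RPKM in MSCs and 7.71 ± 1.04 in EVs (SD, n = 3 each), with a log2FC of -0.17 ± 0.35 (edgeR adjusted p = 0.803). TNFSF12 had 14.5 ± 4.2 RPKM in MSCs and 10.2 ± 2.16 in EVs (SD, n = 3 each) and was lower in the EVs of all 3 pigs, by a log2FC of -0.57 ± 0.35 (edgeR adjusted p = 0.413). It was counted on a stretch of 269 bases on a short unplaced contig, and a further stretch of it on another contig gave -0.61. TNFSF13B, also called BAFF, had 3 reads in MSCs and 1 in EVs and was not tested.

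TNFRSF12A, also called Fn14, is the receptor of TNFSF12 and is known to be induced in growing and injured tissue. It had 141, 177 and 101 reads in the MSCs of pigs 1, 2 and 3, against 59, 60 and 27 in their EVs. Every EV library was below every MSC library, at 12.1 ± 4.31 CPM in MSCs and 4.13 ± 1.22 CPM in EVs (SD, n = 3 each). The log2FC was -1.55 ± 0.40 (edgeR adjusted p = 0.219), that is 2.92-fold lower in EVs, with an adjusted p of 0.0809 with the pig as a block and of 0.0244 from DESeq2. It was past the unadjusted threshold in all 14 alternative fits in which it had a value, with log2FCs of -1.75 to -1.11.

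The entry of TNFRSF12A lies at chr3:40522157-40533352, within the span of ZNF205. A second entry of the gene had 79, 84 and 72 reads in MSCs, against 44, 40 and 20 in EVs. Its log2FC was -1.19 ± 0.37 (edgeR adjusted p = 0.247), in the same direction. Both entries draw on the same libraries, so they do not count as separate support.

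TNFRSF21, a death domain receptor also called DR6, had 126, 327 and 622 reads in MSCs, against 266, 1047 and 933 in EVs. It was higher in the EVs of every pig, by a similar step from different starting levels, and the groups overlap because pig 1 was low in both. The log2FC of TNFRSF21 was 1.08 ± 0.68 (edgeR adjusted p = 0.427) and 1.14 ± 0.29 in the blocked fit (adjusted p = 0.0853). TNFRSF1B, the second TNF receptor, was lower in the EVs of all 3 pigs, at 6.27, 18.7 and 11.6 RPKM in MSCs and 5.76, 5.05 and 7.07 in EVs. The pigs ranged more widely in MSCs than in EVs, the groups overlap, and the log2FC was -1.08 ± 0.46 (edgeR adjusted p = 0.313). It was past the unadjusted thresholds in 5 of 15 alternative fits, among them DESeq2 (-1.11), the fit without MSC replicate 1 (-1.43) and the fit without EV replicate 3 (-1.34). TNFRSF19 did not differ beyond the spread, with a log2FC of 0.14 ± 0.23, and TNFRSF11B, the decoy receptor osteoprotegerin, had 1 read in all.

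**Figure D4:**
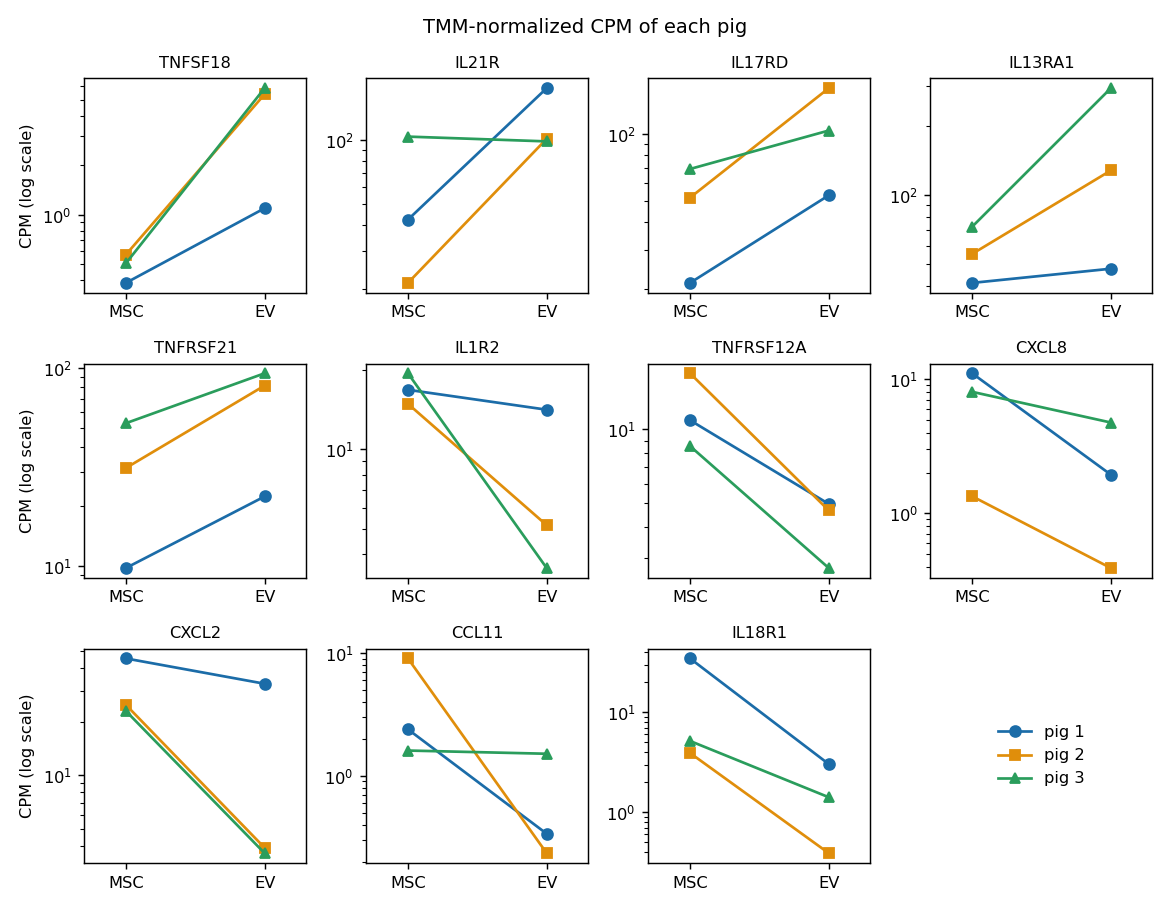
TMM-normalized CPM (vertical axis, log scale) of 11 genes in the MSCs and EVs of each pig, joined by a line per pig. They are the genes past the unadjusted thresholds with the pig as a block: 5 higher and 6 lower in EVs. The lines of IL17RD and TNFRSF21 all run upward from different levels, while those of IL21R and CCL11 include a pig that hardly moved.

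Genes of the same pathways under other names were described from lists of their own, by the unadjusted thresholds of edgeR and beside the shares of 5.55% and 3.57% over all entries. Of 25 listed cytokines and receptors outside the naming rule that had an entry, 8 were tested, 0 were higher and 2 were lower. Of these, CTF1 is a cytokine of the gp130 family and had 36, 36 and 19 reads in MSCs, against 12, 17 and 4 in EVs. All its EV libraries lay below all its MSC libraries, with a log2FC of -1.49 ± 0.56 (edgeR adjusted p = 0.277).

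Of TNF superfamily genes under other names, 3 of 14 could be tested and 1 was higher, CD40LG, the T cell ligand of CD40. It had 1, 13 and 12 reads in MSCs, against 60, 64 and 11 in EVs, a rise in pigs 1 and 2 with hardly any in pig 3. Its log2FC was 2.27 ± 0.89 (edgeR adjusted p = 0.287). The T cell markers CD3E, CD2 and CD4 were at 0 in all 6 libraries, each on an entry whose genomic span overlaps another. For the 3 tested genes of the interferons and their receptors and for the 1 tested atypical chemokine receptor, ACKR3, 0 were called in either direction.

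Downstream of these receptors most genes passed in neither direction. Of the 23 JAK, STAT and SOCS genes with an entry, 9 were at 0 in all libraries, STAT3 and SOCS3 among them. The genomic spans of all 9 entries overlap another entry. Of 11 tested JAK, STAT and SOCS genes and their regulators, 1 was lower, STAT5A, at 156 ± 53.9 CPM in MSCs and 70.2 ± 10.5 CPM in EVs (SD, n = 3 each). STAT5A is a transcription factor that many cytokine receptors activate, and its EV libraries were all below its MSC libraries. The log2FC was -1.16 ± 0.30 (adjusted p = 0.219 in edgeR and 0.0433 in DESeq2), on an entry that shares its span with another. Of the 14 tested genes of IL1 and Toll-like receptor signalling, adaptors and some receptors, 0 were called. The adaptor MYD88 gave a log2FC of 0.02. Of the 20 tested genes of TNF receptor signalling, 1 was higher, the kinase MAP3K5, also called ASK1, with 175, 94 and 103 reads in MSCs, against 373, 634 and 118 in EVs. Its log2FC was 1.57 ± 0.51 (edgeR adjusted p = 0.251), and the EVs of pig 3 lay within the range of the MSCs.

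With the pig as a block, the pathway lists gained the following calls by the unadjusted thresholds. Of the cytokines outside the naming rule, 1 was higher and 3 were lower. The adjusted p-values that follow are those of the blocked fit of edgeR. KITLG, the ligand of KIT, was at 1.59 ± 0.59 (blocked fit, adjusted p = 0.193). CSF3, the growth factor of neutrophils, was at -1.12 ± 0.40 (blocked fit, adjusted p = 0.183). The kinase JAK2 was higher by 1.13 ± 0.43 (blocked fit, adjusted p = 0.204). The endotoxin receptor TLR4 was higher by 1.04 ± 0.45 (blocked fit, adjusted p = 0.242) and XIAP, an inhibitor of caspases, by 1.60 ± 0.48 (blocked fit, adjusted p = 0.122). The shares over all entries in that fit were 8.01% higher and 5.17% lower.

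A marker of another cell type moved beside the lower genes. PECAM1, a surface protein of endothelial cells, had 215, 111 and 114 reads in MSCs, against 78, 20 and 31 in EVs, with a log2FC of -1.71 ± 0.54 (edgeR adjusted p = 0.249). Of the 7 endothelial markers with an entry only ERG could be tested beside it, with a log2FC of -0.16 ± 0.51 (edgeR adjusted p = 0.879). The summed level of the list was 22.1 to 35.6 CPM in MSCs and 7.49 to 27.6 CPM in EVs, and in pig 3 it was higher in EVs. VWF was at 0, and KDR had 1 read in all. The paper describes its MSCs as negative for CD31, the protein that PECAM1 encodes, and for CD14 and CD45, whereas the reads given here are of RNA. The part of the endothelial markers in the differences of the members was not tested.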

How the data were processed

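The authors prepared 1 µg of RNA per library with an Illumina TruSeq kit, aligned the mRNA reads with TopHat to the pig build susScr3 and deposited raw counts per gene from featureCounts together with RPKM. The submitters' processing notes also name HTSeq, and whether the counting used the strand of the reads, or reads over bases shared by 2 genes, is not given in the sources used here, so a gene and an antisense or overlapping partner cannot be told apart. Of 29661 entries in the deposited count table, 3 whose columns were shifted were left out. Symbols were taken from the table or, for 11804 of 25322 entries named by Ensembl identifier, from a reference table of gene names. Chromosome positions are those of the deposited table. Sequences were not analysed here.

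EVs were compared with MSCs over all 12392 entries that passed filterByExpr, by the quasi-likelihood test of edgeR 4.0.16 (R 4.3.3), after TMM normalization and with Benjamini-Hochberg adjustment over all entries. Standard errors were computed as the absolute log2 fold change divided by the square root of F. CPM in the text are TMM-normalized unless said otherwise, and RPKM are the deposited values. The fit was tested on simulated data. A gene was called at a fold change over 2 with a p-value under 0.05, adjusted or, by the thresholds of the study, unadjusted. The EV and MSC library with the same number in their titles were taken to come from the same animal. Deviations from the group means correlated at 0.251, 0.384 and 0.408 within pigs and at -0.364 to -0.0385 between pigs. The pig was therefore used as a replicate block in an alternative fit. Further alternatives were DESeq2 1.42.0, RLE size factors, other filters on low counts, limma 3.58.1 on log2 of the deposited RPKM plus 1 or 0.1, the trend of gene length removed, entries that share at least 90% of their span left out, and each library left out in turn.

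Named are the genes called by the unadjusted thresholds in edgeR or by the adjusted ones in the edgeR, blocked or DESeq2 fit, the 10 with the highest mean RPKM in each group, and a set of well-known members, and other members, chosen after their values were seen, complete each role. The members and lists were chosen with earlier results of these data known. The small-RNA libraries and the proteomic experiments of the study were not used here. Values of some single genes of the pathway lists are not reported here.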

Additional observations from a re-analysis of the deposited data

How the results depend on the processing

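Of the members, 59 had no reads and 20 had too few to be tested, and 3 libraries per group limit the precision of the other 40. By the unadjusted thresholds, 2 members were higher in EVs, but 5 with DESeq2 (IL31RA, which edgeR's filter left out, among them), 5 without a filter on low counts, 5 with the pig as a replicate block and 1 with limma on log2(RPKM + 1). Against 3 lower members there were 6 with DESeq2 (CCL2, also left out by that filter, among them), 6 without the filter, 6 with the replicate block and 1 without entries that share a span. By the unadjusted thresholds, the share over all entries was computed only for edgeR with and without the replicate block. In the other fits, whether a gain or loss of calls is particular to the members was therefore not tested. At an adjusted p-value under 0.05, the count of 0 became 3 with DESeq2 and 1 with the replicate block. The median log2 fold change of the members, -0.04, was 0.12 without entries that share a span, the only alternative besides leaving out a library that moved it beyond the spread of 0.153 between pigs. When each library was left out in turn, the count of higher members was 1 to 3 (1 without MSC replicate 1 and 1 without EV replicate 2), that of lower members 2 to 4 (2 without MSC replicate 2 and 2 without EV replicate 2), that of adjusted calls 0, and the median -0.21 (without MSC replicate 1) to 0.11.

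Of the named members refitted under the alternatives, the direction changed for the following, none of which was called. Without MSC replicate 2 the log2 fold change of TNFSF9 was 0.31, that of IL17RA 0.35 and that of IL1R1 -0.14, and without EV replicate 3 that of IL17RA was 0.03. Over all fits that left out a library they ranged from -0.38 to 0.31 for TNFSF9, from -0.49 to 0.35 for IL17RA and from -0.14 to 0.36 for IL1R1. With the trend of gene length removed, which moved the median of all entries from -0.02 to -0.07, that of IL1R1 was -0.0093 and that of LIFR -0.26. The cause was not tested. Of 353 values of the named members under the alternatives, 305 kept their direction and their side of the unadjusted threshold, 14 lost it, 28 gained it and 6 changed direction. The replicate block changed no other call of a member than those given above. CCL11, CXCL8, IL11RA, IL17RA, IL4R, IL6 and TNFRSF12A have no value without entries that share a span, since they are such entries, and neither do CCR7 and ACKR3, the single tested genes of their lists.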
